A study of Mus musculus with 4 samples.

Results

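The haemoglobin and erythroid genes are 9 genes of red blood cells, and their mRNA was followed here on 4 microarrays of mouse lumbar spinal cord. They were *Hba-a1* and *Hba-a2* (alpha-globin), *Hbb-b1* and *Hbb-b2* (beta-globin), *Alas2*, *Slc4a1*, *Bpgm*, *Epb4.2* and *Klf1*. Every probe whose gene name in the array files equals one of these was taken, which gave 10 probes of 39429, with 2 for *Epb4.2* and 1 for each other gene. The whole array names 30222 genes. The genes were chosen by their measured levels on these same arrays, so that all of their differences below are a description and none was tested.

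All mice were young males of the outbred ICR stock with partial sciatic nerve ligation (PSL), a model of neuropathic pain in which part of the nerve is tied off, and RNA came from slices of lumbar segments on day 7 after the injury. Sham+PSL mice had a sham adrenalectomy and kept their adrenal glands, and ADX+PSL mice were adrenalectomized and so lacked the main source of glucocorticoids. Each operation was sampled at ZT10, late in the light phase, and at ZT22, late in the dark phase, when glucocorticoids of sham+PSL mice were high and low, respectively. Each of the 4 conditions had 1 array, and the sources used here do not give the number of mice behind each RNA. With 1 array a condition there is no replicate error between animals, and the error given is that of the spot as estimated by the scanner software.

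Haemoglobin is a tetramer of alpha and beta chains, each holding a haem group that binds oxygen. Its mRNA is made in erythroid precursors of the marrow and spleen, where KLF1 and GATA1 switch on the globin genes and ALAS2 starts haem synthesis, and it persists in reticulocytes, the young red cells that have lost their nucleus but still circulate with RNA. In the spinal cord these transcripts are known chiefly from blood in the vessels, with low haemoglobin expression also described in some neurons and glia.

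The probe sequences show which transcripts an intensity can come from. The upstream sequences show matches to control elements before the globin genes and *Alas2*, and before *Bpgm*, whose level stayed apart from theirs. The 60-base probe of *Hba-a1* lies at chr11:32183955-32184014 of mm9, plus strand, in the coding part of an exon, and 1 of its 3 reading frames has no stop codon. The probe of *Hbb-b2* has no mm9 position in the files, and it likewise has 1 frame without a stop. Both alpha-globin probes carry the RefSeq mRNA accessions of both alpha-globin genes, so *Hba-a1* and *Hba-a2* cannot be told apart on this array.
Hba-a1 probe: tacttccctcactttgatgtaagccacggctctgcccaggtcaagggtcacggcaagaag
Hbb-b2 probe: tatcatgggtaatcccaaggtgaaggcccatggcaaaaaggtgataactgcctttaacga

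The upstream windows are from RefSeq on GRCm38.p6, read 5′ to 3′ on the gene's strand, and each printed stretch is the 200 bases before the transcription start. Capitals mark a CACCC box (CACCC, the core of KLF-type sites), a GATA element (GATA between an adenine or thymine and a purine), a CCAAT box (CCAAT) or a TATA box (ATATAA), on either strand. The *Hbb-b1* probe carries an accession that RefSeq now names *Hbb-bt*, and *Hbb-bs* is the neighbouring adult beta-globin gene; mouse strains carry either the pair *Hbb-bs* and *Hbb-bt* or the pair *Hbb-b1* and *Hbb-b2*.
Hba-a1, chr11:32283472-32283671, plus strand: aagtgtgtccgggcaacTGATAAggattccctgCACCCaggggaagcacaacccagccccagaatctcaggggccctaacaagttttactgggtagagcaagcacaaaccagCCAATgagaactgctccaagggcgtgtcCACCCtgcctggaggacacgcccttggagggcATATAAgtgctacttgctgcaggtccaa
Hbb-b1 (RefSeq Hbb-bt), chr7:103813924-103814123, minus strand: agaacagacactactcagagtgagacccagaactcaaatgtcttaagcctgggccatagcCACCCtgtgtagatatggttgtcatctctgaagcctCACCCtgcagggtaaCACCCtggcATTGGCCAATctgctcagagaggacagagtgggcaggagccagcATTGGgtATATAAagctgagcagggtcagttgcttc
Hbb-bs, chr7:103827929-103828128, minus strand: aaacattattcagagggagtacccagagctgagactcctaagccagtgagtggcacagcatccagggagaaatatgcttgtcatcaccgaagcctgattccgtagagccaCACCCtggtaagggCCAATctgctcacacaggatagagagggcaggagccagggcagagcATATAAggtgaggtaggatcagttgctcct
Alas2, chrX:150547217-150547416, plus strand: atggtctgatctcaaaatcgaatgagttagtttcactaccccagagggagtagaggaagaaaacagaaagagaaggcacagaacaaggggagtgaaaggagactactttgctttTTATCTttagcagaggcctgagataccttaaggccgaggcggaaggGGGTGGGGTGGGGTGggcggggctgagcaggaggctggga
Bpgm, chr6:34476156-34476355, plus strand: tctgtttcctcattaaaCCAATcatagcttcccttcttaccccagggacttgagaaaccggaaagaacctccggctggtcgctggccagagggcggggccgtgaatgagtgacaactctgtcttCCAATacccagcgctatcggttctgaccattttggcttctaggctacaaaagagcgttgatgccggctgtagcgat

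In the 250 bases before the start, a CACCC box was found for 5 of the 7 genes with a RefSeq entry and in 52.0% of all 32851 promoters. A GATA element was found for 5 of 7 genes against 26.5% of all promoters, and a CCAAT box for 5 of 7 against 33.8%. The TATA box was found for *Hba-a1*, *Hba-a2* and *Hbb-b1*, 3 of the 7, against 9.1% of all promoters. The nearest TATA box began 28 bases before the start of *Hba-a1* and 29 bases before that of *Hbb-b1*, and a GATA element began 86 bases before the start of *Alas2*. *Bpgm* had 3 CCAAT boxes and none of the other elements in the window. *Klf1* had a CACCC box, a GATA element and a CCAAT box, and *Epb4.2* had a GATA element, though neither gene was well above background on the sham+PSL arrays. The 300-base windows of *Hba-a1* and *Hba-a2* share a run of 297 bases. These matches describe letters in a window and not occupied sites.

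Between 65.1% and 70.1% of the probes were well above background on each array, meaning that the spot passed the scanner software's flag for a signal above its local background, and no spot was saturated. The 7 spike-in controls that passed this flag on every array had a range over the 4 arrays of 0.059 to 0.16 on the log2 scale. Of the 9 genes, 7 were well above background on all 4 arrays, *Klf1* on 1 array and *Epb4.2* on none. The markers of spinal cord were at hand on every array: all 12 were well above background, and the median of their log2 ratios was -0.016 for sham+PSL ZT10 over ZT22 and 0.0072 for ADX+PSL over sham+PSL at ZT22. Single markers varied more. The largest log2 ratios of sham+PSL ZT10 over ZT22 were -0.50 for *Aqp4*, 0.49 for *Hoxd10*, -0.40 for *Mog* and 0.29 for *Slc6a5*. In sham+PSL 0 of 12 passed 2-fold, and 1 of 12 was 2-fold lower at ZT10 in ADX+PSL, as were 1.9% of all probes. *Snap25*, a synaptic protein of neurons, had levels of 60063, 59511, 63570 and 63126 in the order sham+PSL ZT10, sham+PSL ZT22, ADX+PSL ZT10 and ADX+PSL ZT22, the order used for all levels below. Levels are linear intensities that the authors quantile-normalized over the 4 arrays.

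The alpha-globin genes encode the alpha chain of adult haemoglobin. *Hba-a1* had levels of 31430, 3725, 21626 and 20761. *Hba-a2* had levels of 81120, 12239, 56627 and 47305. For both, the sham+PSL ZT22 array was far below the other 3, and the sham+PSL ZT10 array was the highest. The sham+PSL ratio of ZT10 to ZT22 was 8.44-fold for *Hba-a1* and 6.63-fold for *Hba-a2*, or 3.08 and 2.73 on the log2 scale with a spot error of 0.20. In ADX+PSL the same log2 ratios were 0.059 and 0.26, so the ADX+PSL arrays did not differ beyond the spot error for *Hba-a1* and by little more than it for *Hba-a2*. At ZT10 the levels in ADX+PSL were 0.688 and 0.698 of those in sham+PSL. The bright alpha-globin spots on the 3 higher arrays were read by the scanner at its low gain and scaled up, whereas sham+PSL ZT22 needed no such scaling. The *Hbb-b1*, *Hbb-b2* and *Alas2* spots, which showed the same low array, were read without this scaling on all 4 arrays.

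The beta-globin genes encode the other chain of adult haemoglobin. *Hbb-b1*, probed at chr7:110961105-110961164 of mm9 on the minus strand near the 3′ end of the transcript, had levels of 15696, 1890, 11451 and 12679. *Hbb-b2* had levels of 7183, 836, 5046 and 8761. The sham+PSL ZT22 array was again the lowest for both. In sham+PSL the ratio of ZT10 to ZT22 was 8.30-fold for *Hbb-b1* and 8.59-fold for *Hbb-b2*.

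The pair of beta-globin probes parted on the ADX+PSL ZT22 array. There *Hbb-b2* had its highest level of all, whereas *Hbb-b1* stayed below its sham+PSL ZT10 level. In ADX+PSL the log2 ratio of ZT10 over ZT22 was -0.15 for *Hbb-b1* and -0.80 for *Hbb-b2*, a gap of -0.65 with a spot error of 0.29. At ZT22 *Hbb-b1* was 6.71-fold and *Hbb-b2* 10.5-fold higher in ADX+PSL than in sham+PSL. In sham+PSL the gap between the probes was 0.049, within the spot error. Near-identical gene copies can hybridize to either probe, so the share of each transcript in these intensities is not known. The beta-globin haplotypes of these outbred mice are not given in the sources used here, and a difference in haplotype between the mice behind the arrays cannot be told apart from a difference between the conditions.

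*Alas2* encodes the erythroid form of 5-aminolevulinate synthase, the first enzyme of haem synthesis. Its probe, at chrX:147004993-147005052 of mm9 on the plus strand, had levels of 420, 50.8, 277 and 265. It followed the globins, with the sham+PSL ZT22 array lowest and the ADX+PSL arrays close to each other. The ratio of ZT10 to ZT22 was 8.25-fold in sham+PSL (log2 3.05, spot error 0.24) and 1.04-fold in ADX+PSL. Without background subtraction the log2 ratio in sham+PSL was 1.95.

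*Slc4a1* encodes band 3, the anion exchanger of the red cell membrane. It had levels of 63.9, 27.0, 47.4 and 39.7 at chr11:102210256-102210315 of mm9 on the minus strand. The order of the arrays was that of *Hba-a1*, but the spread was smaller and the level was near the lowest that counted as well above background, which lay between 12.8 and 22.2 on the 4 arrays. Its sham+PSL ratio of ZT10 to ZT22 was 2.37-fold (log2 1.24, spot error 0.29), and this was 0.49 on the log2 scale without background subtraction. At ZT22 it was 1.47-fold higher in ADX+PSL than in sham+PSL.

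*Bpgm*, *Epb4.2* and *Klf1* gave no measurable low on the sham+PSL ZT22 array. *Bpgm* encodes bisphosphoglycerate mutase, which makes the 2,3-bisphosphoglycerate that lowers haemoglobin's oxygen affinity, and it had levels of 4043, 4195, 3886 and 3906 at chr6:34454792-34454851 of mm9. Its range over the 4 arrays was 0.11 on the log2 scale, less than the spot error of 0.20, and its highest level was on the array where the globins were lowest. *Epb4.2* encodes protein 4.2, which ties band 3 to the membrane skeleton, and neither of its probes was well above background on any array, at levels between 3.77 and 4.51. *Klf1* encodes the erythroid Krüppel-like factor, and its levels were 13.8, 8.15, 23.1 and 20.3. Only the ADX+PSL ZT10 level of *Klf1* was well above background, at least 1.56-fold above sham+PSL at ZT10, and no ratio was formed between the sham+PSL arrays.

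**Figure D1:**
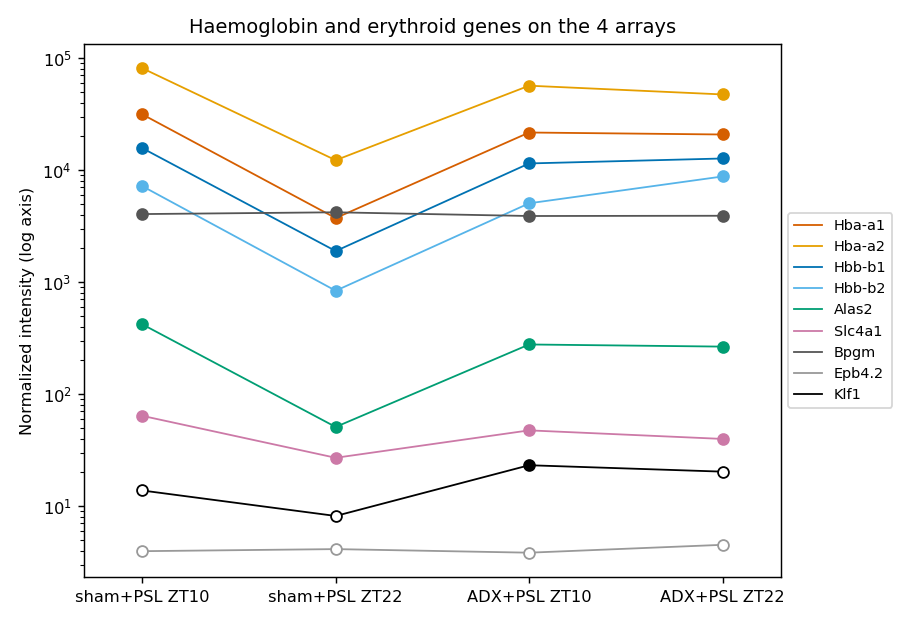
Normalized intensity (log axis) of the 9 genes on the 4 arrays, 1 probe a gene, with filled points well above background and open points not; lines join the arrays of a gene and carry no order in time. The 4 globin probes and *Alas2* have their lowest point on the sham+PSL ZT22 array, while *Bpgm* stays between 3886 and 4195.

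The sham+PSL ZT22 array held the lowest level of 7 of the 8 genes that were well above background on at least 1 array, and of 27.8% of all 28845 such probes. *Bpgm* was the exception, and *Klf1*, counted among the 7, was not above background there. *Hba-a1*, *Hba-a2*, *Hbb-b1*, *Hbb-b2* and *Alas2*, 5 of the 8, were at least 2-fold lower on that array than on each of the other 3, as were 0.416% of all probes. Over the other 3 arrays the log2 range of these 5 genes was only 0.45 to 0.80. Because the genes were chosen with these levels known, the counts are given beside the shares of all probes as a description.

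Between the sham+PSL arrays, 6 of the 7 genes measured were at least 2-fold higher at ZT10 and none was 2-fold lower, where 2.72% of all 27671 probes were higher and 2.5% lower. The genes not measured were *Epb4.2* and *Klf1*. The median log2 ratio of the 7 genes was 3.05, against 0.015 over all probes. Between the ADX+PSL arrays, 0 of 8 genes passed 2-fold in either direction, where 2.4% of all 27931 probes were higher at ZT10 and 1.9% lower. The median log2 ratio of these 8 genes was 0.061. The sham+PSL and ADX+PSL ratios stand side by side here, and the difference between them was not tested.

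Between the operations at ZT10, 0 of 8 genes passed 2-fold, where 2.63% of all 28333 probes were higher in ADX+PSL and 2.97% lower. Their median log2 ratio was -0.48, and the globins and *Alas2* all lay between 0.66 and 0.73 of their sham+PSL levels. At ZT22, 5 of 7 genes were at least 2-fold higher in ADX+PSL and none was 2-fold lower, where 2.07% of all 26901 probes were higher and 2.72% lower. For these 5, the globins and *Alas2*, the fold at ZT22 ran from 3.87 for *Hba-a2* to 10.5 for *Hbb-b2*, while *Slc4a1* was at 1.47 and *Bpgm* at 0.931. The median log2 ratio of the 7 genes was 2.38. This comparison shares the sham+PSL ZT22 array with that of the sham+PSL time points, so the same low array stands in both. RNA from whole slices does not show which cells the globin mRNA came from. Fewer red cells and less RNA per red cell cannot be told apart either, and neither was tested.

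**Figure D2:**
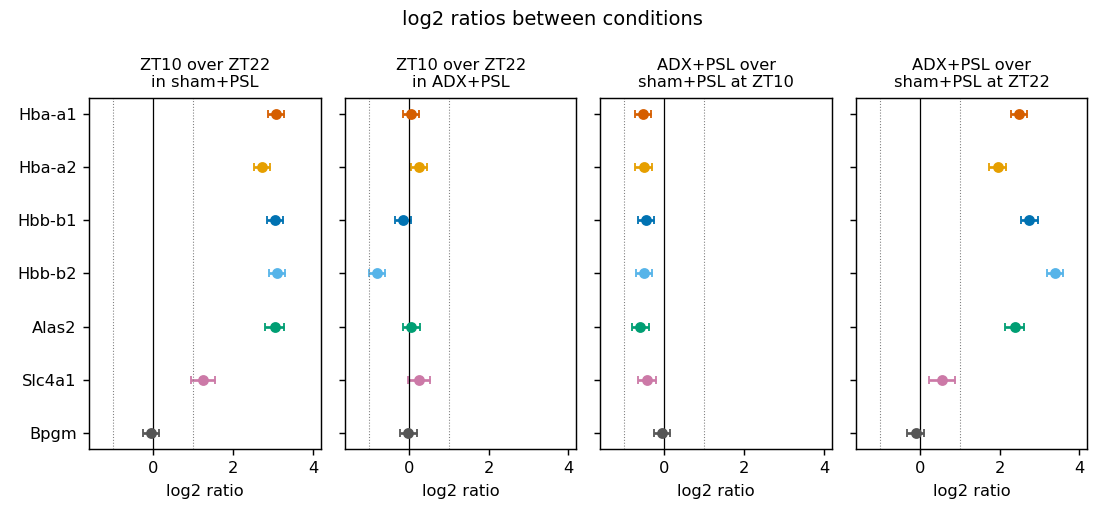
log2 ratio (horizontal axis, with dotted lines at 2-fold) of the 7 genes well above background on all 4 arrays, in the 4 comparisons; bars are 1 spot error and not a spread between animals. The globins and *Alas2* lie between 2.73 and 3.10 for the sham+PSL time points, between 1.95 and 3.39 for the operations at ZT22, and within 2-fold in the other comparisons.

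Among the other haemoglobin genes, the adult beta-globin *Hbb-bs* was lowest at sham+PSL ZT22, as were the globins above, and had the array order of *Hbb-b1*. *Hbb-bs*, named *Beta-s* on the array, had levels of 1586, 176, 1090 and 1106 and a sham+PSL ratio of ZT10 to ZT22 of 8.99-fold. *Hbb-bh2*, a beta-like gene under the array name *Gm5736*, passed the flag only at sham+PSL ZT10, with 59.5, and was at least 3.24-fold above sham+PSL ZT22; its other levels were 4.55, 4.62 and 5.75, so that it was high on 1 array and not low on 1. *Hbq1*, a theta-globin gene, had levels of 42.7, 22.8, 32.9 and 47.6, lowest at sham+PSL ZT22 but highest at ADX+PSL ZT22, and *Hbq1b* had 18.9, 19.7, 20.5 and 21.7. *Hbb-bs* and *Hbb-bh2* were added to this list after their values were seen, and *Hbb-bh2* passed the flag only where it was high, so no count over the list is given. The embryonic genes *Hba-x* and *Hbb-y* did not pass the background flag on any array, and *Hbb-bh1* was so on 2, with 23.7 and 29.4 at ZT10 in sham+PSL and ADX+PSL. Of 3 globins of other cells, 3 had their lowest measured level at sham+PSL ZT22, as did 27.8% of all probes, but no such low was beyond the spot error. *Cygb*, the cytoglobin of fibroblasts and other tissue cells, had levels of 19662, 18952, 21919 and 23653. *Ngb*, the neuroglobin of neurons, had 350, 293, 326 and 328. Their lows lay 0.053 and 0.15 below the next lowest array on the log2 scale, against a spot error of 0.20. *Mb*, myoglobin, had 27.8 and 15.2 in sham+PSL, the latter not well above background. Of the 3, 0 passed 2-fold in sham+PSL, with a median log2 ratio of 0.26.

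The rest of the haem pathway lay near equality between the sham+PSL arrays, where 2.72% of all probes were 2-fold higher at ZT10 and 2.5% lower. Of 12 haem synthesis genes, 0 passed 2-fold, and their median log2 ratio was 0.036. *Alas1*, the housekeeping counterpart of *Alas2*, had levels of 8653, 8403, 7681 and 7520. *Fech*, which puts iron into the porphyrin ring, was 1.26-fold higher at ZT10 in sham+PSL. *Tmem14c*, a mitochondrial porphyrin transporter, had 1123, 1770, 1737 and 994, lower at ZT10 in sham+PSL and higher at ZT10 in ADX+PSL. Of 7 iron uptake genes, 0 passed 2-fold (median 0.092), and *Tfrc*, the transferrin receptor, had levels of 1888, 1495, 1677 and 1555, with 1 other *Tfrc* probe differing from it by over 0.5 on the log2 scale. Of 6 haem breakdown and scavenging genes, 1 was 2-fold lower at ZT10 in sham+PSL (median -0.20). This was *Hp*, haptoglobin, whose protein binds free haemoglobin, with 40.5, 90.2, 48.6 and 25.9. Its highest mRNA level was on the array where globin mRNA was lowest, and haemoglobin protein was not measured.

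Between the sham+PSL arrays, genes of red cell structure and maturation were mostly within 2-fold or too dim. There 2.72% of all probes were 2-fold higher at ZT10 and 2.5% lower. *Spna1*, the erythroid alpha-spectrin, passed the flag only at sham+PSL ZT10, with 45.1, and was at least 2.46-fold above sham+PSL ZT22. It was the only 1 of 15 membrane and skeleton genes past 2-fold between these arrays (median 0.20). *Ahsp*, the chaperone that stabilizes free alpha-globin, was likewise well above background only there, at 24.8, and at least 1.35-fold above sham+PSL ZT22; by its measured levels it was the 1 of 21 red cell enzyme and maturation genes past 2-fold (median 0.050). Among the enzymes, *Car1*, a carbonic anhydrase abundant in red cells, had levels of 65.3, 77.3, 85.6 and 88.3, and *Car2*, also strong in oligodendrocytes, had 26262, 28145, 28742 and 31230. Of 10 erythroid transcription factor genes measured, 0 passed 2-fold (median 0.0017), and *Gata1*, the master factor of erythroid precursors, passed the background flag on 0 of 4 arrays. *Epor*, the erythropoietin receptor, had 410, 326, 387 and 505. Between the operations at ZT10, 2 of 15 membrane and 3 of 21 enzyme and maturation genes were 2-fold lower in ADX+PSL, against 2.97% of all probes. At ZT22 the counts were 2 of 14 and 0 of 19, against 2.72%, and none was 2-fold higher at either time. The membrane gene *Gypc*, well above background on all 4 arrays, had 231, 184, 73.8 and 74.5. In the list of oxygen sensing and hypoxia, 1 of 10 genes was 2-fold higher and 1 lower at ZT10 in sham+PSL (median 0.12). The lower one was *Epo*, the hormone of red cell production. *Epo* did not pass the background flag at sham+PSL ZT10 and was at least 2.75-fold higher on the sham+PSL ZT22 array, at 40.9. It passed the flag on 2 arrays, sham+PSL ZT22 and ADX+PSL ZT10. By its measured levels the log2 ratio of ZT10 over ZT22 was -2.42 in sham+PSL and 2.10, the opposite direction, in ADX+PSL. A link between *Epo* and the globin levels was not tested. The higher one was *Hif3a*, with 348, 50.6, 145 and 75.2, for which 1 other probe differed by over 0.5 on the log2 scale.

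Markers of other blood cells differed in which array was lowest. Sham+PSL ZT22 was lowest for 2 of 9 neutrophil, 1 of 8 platelet, 1 of 6 lymphocyte and 0 of 4 monocyte genes, against 27.8% of all probes. By measured levels 1 of the 9 neutrophil genes was at least 2-fold lower there than on each other array, as were 0.416% of all probes. Of 14 neutrophil genes, 9 were well above background somewhere, with a summed level between 39629 and 48824 that was mostly that of *Csf3r*, and 0 of 8 measured passed 2-fold in sham+PSL (median 0.13). Between the ADX+PSL arrays 5 of 9 were 2-fold lower at ZT10 (median -1.09), as were 1.9% of all probes. *Chi3l3*, a chitinase-like protein of neutrophils and monocytes, had 836, 1096, 48.8 and 636, a range of 4.49 on the log2 scale that was wider than that of any globin, with ADX+PSL ZT10 as the low array. *S100a8*, a neutrophil calcium-binding protein, had 123, 62.4, 39.1 and 89.3, and its partner *S100a9* had 394, 213, 122 and 303. For both, sham+PSL ZT10 was the highest array, as for alpha-globin, but ADX+PSL ZT10 and not sham+PSL ZT22 was the lowest. Of 11 platelet and megakaryocyte genes, 8 were well above background somewhere, with a summed level of 864, 681, 448 and 493. Only *Ppbp*, a platelet chemokine, was 2-fold higher at ZT10 of 8 measured in sham+PSL (median 0.45), as were 2.72% of all probes. It passed the flag only at sham+PSL ZT10, and its bound was at least 1.63-fold. In the same list *Pf4*, platelet factor 4, had 362, 209, 93.4 and 135. Of 10 lymphocyte genes with a probe, 6 were well above background somewhere, with a summed level of 1594 to 1708, and 0 of 6 passed 2-fold in sham+PSL (median -0.30). Of 4 blood monocyte genes, *Fn1* and *Plac8* were 2-fold lower at ZT10 in sham+PSL by measured levels (median -0.70), as were 2.5% of all probes. *Plac8*, at a log2 ratio of -1.015, was well above background on only 1 of the sham+PSL arrays. The part of these cells in the globin differences was not tested.

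Markers of vessels, meninges and muscle were compared in the same way. All 14 endothelial genes were well above background on all 4 arrays, with a summed level of 25756 to 30600, and 0 passed 2-fold in sham+PSL (median 0.024); *Ly6c1* had 8761, 4893, 6693 and 9379. Of 10 pericyte and vessel muscle genes, only *Myh11*, a smooth muscle myosin, was 2-fold higher at ZT10 in sham+PSL by its measured levels (median 0.31). It passed the flag on 2 arrays, both at ZT10, so its log2 ratio of 1.06 was measured against a level at background. The 10 meningeal fibroblast genes had a summed level of 20992, 17556, 6135 and 6375 and divided the arrays by operation. At ZT10 10 of 10 were 2-fold lower in ADX+PSL, as were 2.97% of all probes, and at ZT22 9 of 10, as were 2.72%. Only *Lum*, a collagen-binding proteoglycan, passed 2-fold between the sham+PSL arrays (median 0.18). Fast skeletal muscle genes had a summed level of 2957, 451, 356 and 345. By measured levels 7 of 8 were 2-fold higher at sham+PSL ZT10 than at sham+PSL ZT22 (median 2.79), as were 2.72% of all probes. Of these 8, 5 were well above background on all 4 arrays. Others, such as *Myh4*, a fast muscle myosin, passed the flag only at sham+PSL ZT10, where they were high, so their ratios are bounds. *Tnnc2*, a fast muscle troponin, had 516, 29.8, 31.5 and 40.8. Globin levels, with 1 array low and 3 high, therefore differed in shape from muscle, with 1 array high, and from fibroblasts, split by operation. The part of tissue composition in the globin differences was not tested.

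**Figure D3:**
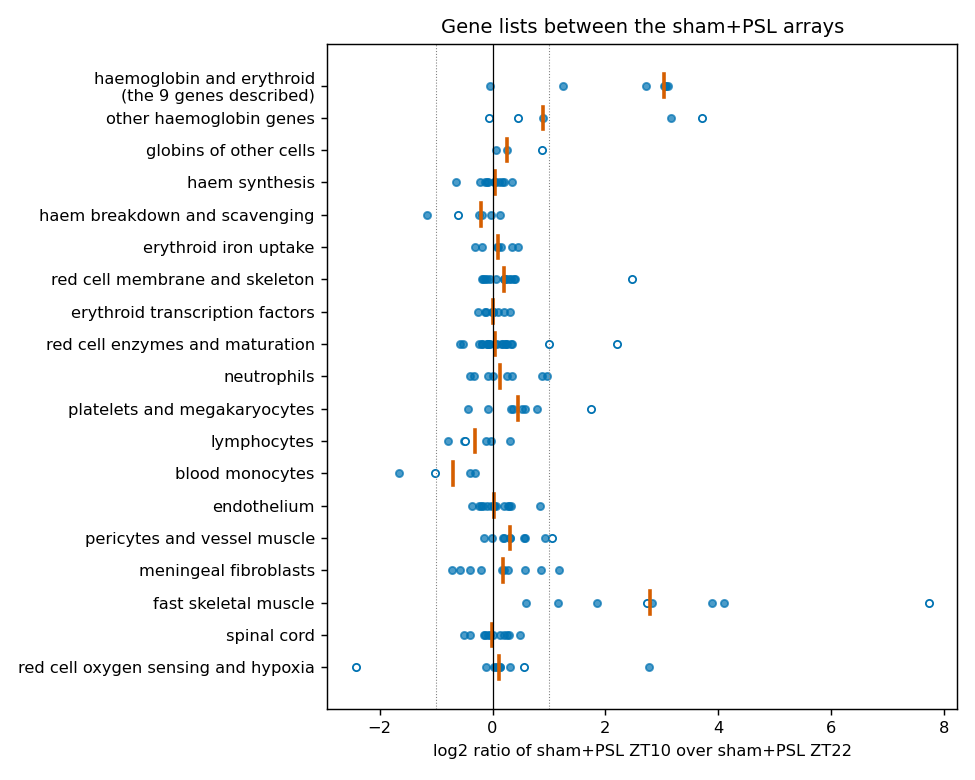
log2 ratio of sham+PSL ZT10 over sham+PSL ZT22 for each gene of each list, with filled points well above background on both arrays, open points on 1 of them, the orange bar at the list's median and dotted lines at 2-fold. The 9 genes described and fast skeletal muscle have medians of 3.05 and 2.79, the latter including genes flagged only at sham+PSL ZT10. The other haemoglobin genes, to which *Hbb-bs* and *Hbb-bh2* were added after their values were seen, have a median of 0.90. The remaining lists have medians between -0.70 and 0.45.

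Profiles most like those of the haemoglobins were sought among 22324 named probes well above background on all 4 arrays, by the root mean square distance between a probe's 4 log2 levels, centred on their mean, and the mean centred profile of the 4 globin probes. The 9 genes were left out of the search. Their own distances were 0.045 for *Hbb-b1*, 0.096 for *Hba-a1*, 0.12 for *Alas2*, 0.25 for *Hba-a2*, 0.30 for *Hbb-b2*, 0.81 for *Slc4a1* and 1.22 for *Bpgm*. *Beta-s*, which is *Hbb-bs*, was the closest probe outside them, at 0.079. After *Beta-s* came a wide gap: *Gm13770* followed at 0.45, and then *Gm7120* with 2 probes, *Mid1*, *Cd6*, *Mtch2*, *Erdr1*, *Gm14325* and *Gm10661*, the last at 0.65. Of these, *Erdr1*, named on the array as an erythroid differentiation regulator, had levels of 34117, 8981, 19551 and 17352 and had a sham+PSL ratio of ZT10 to ZT22 of 3.80-fold. *Gm13770* had 746, 218, 639 and 754. With 4 values a probe, likeness is a description, and nothing on shared control follows from it.

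**Figure D4:**
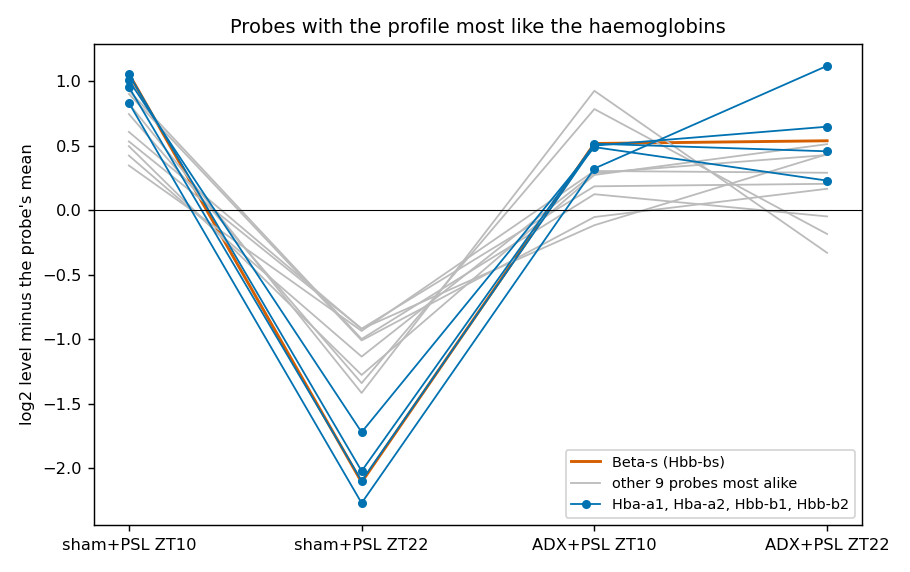
log2 level of a probe minus its mean over the 4 arrays, for the 4 globin probes (blue), *Beta-s* (orange) and the other 9 probes most like them (grey). *Beta-s* runs among the globins, and the grey probes have a shallower low on the sham+PSL ZT22 array.

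**Figure D5:**
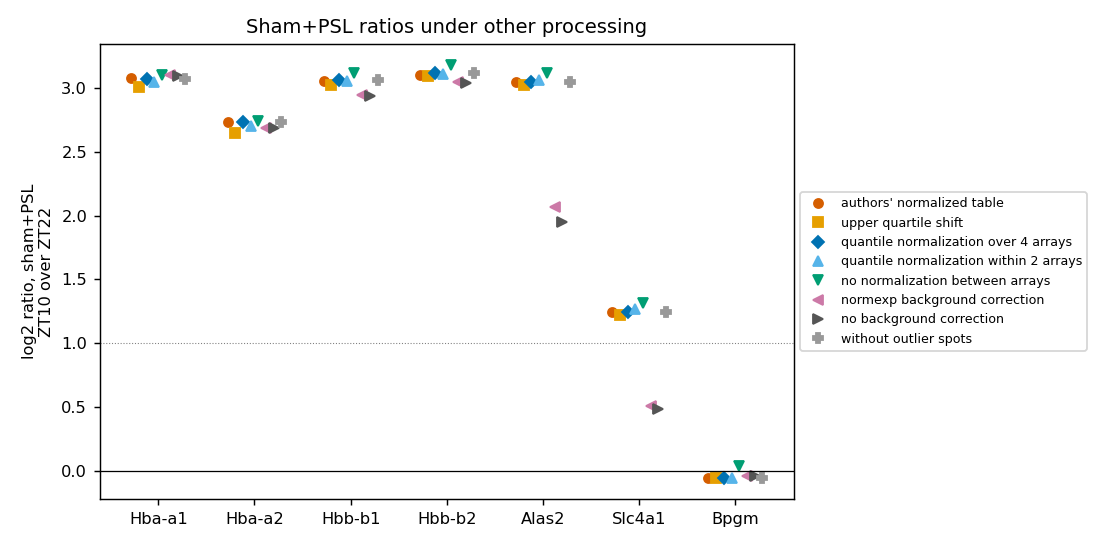
log2 ratio of sham+PSL ZT10 over ZT22 for the 7 genes well above background on all 4 arrays, under the authors' table and 7 ways of processing the scanner files; the dotted line marks 2-fold. The globins lie between 2.64 and 3.18 under every setting shown, while *Alas2* and *Slc4a1* are at 1.95 and 0.49 without background correction.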

How the data were processed

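RNA of 4 conditions was hybridized to 1-colour arrays of 60-base probes, 1 array a condition, on 1 slide. The authors deposited spot intensities from Agilent Feature Extraction (9.5.1.1 per the labels, 10.7.1.1 per the file headers) with flags, and a table of linear intensities; that table matched the processed signal after quantile normalization over the 4 arrays. Levels were taken from the table. A probe was well above background where at least 50% of its spots were flagged so. A gene was represented by its probe with the highest mean log2 level. Ratios were formed where a probe was well above background on either array, written as a bound ("at least") where only 1 was, the dim side being set to the higher of its own level and the array's lowest level well above background. A limit of 2-fold was used, with no test. Counts of genes past 2-fold use measured levels.

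Genes and lists were chosen with earlier results of these data known. Named genes were the 9 genes, some of the 4 with the largest sham+PSL ratio of each list, fixed marker genes, and the 10 most alike probes. Lists were haemoglobins, other globins, haem synthesis and breakdown, iron uptake, red cell membrane, transcription factors, enzymes, oxygen sensing, neutrophils, platelets, lymphocytes, monocytes, endothelium, pericytes, fibroblasts, muscle and spinal cord. Probe accessions were matched to RefSeq symbols for 9 of 10 probes. Steps were tested on simulated data and used Python 3.11.15, numpy 2.4.6, pandas 2.3.3, matplotlib 3.10.9 and limma 3.58.1 in R 4.3.3. The number of arrays limits the precision.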

Additional observations from a re-analysis of the deposited data

Results flagged for a closer look

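For these genes, which were well above background on all 4 arrays, the ZT10 and ZT22 levels differed in opposite directions in sham+PSL and ADX+PSL, each by more than 2 spot errors. Values are log2 ratios of ZT10 over ZT22, and the difference is the sham+PSL value minus the ADX+PSL value. The differences between the operations were not tested, with 1 array a condition. *Hbb-b2* had 3.10 for sham+PSL against -0.80 for ADX+PSL, and the difference was 3.90. *Gm10661* had 1.53 for sham+PSL against -0.55 for ADX+PSL, and the difference was 2.08. *Tmem14c* had -0.66 for sham+PSL against 0.81 for ADX+PSL, and the difference was -1.46. *Hp* had -1.15 for sham+PSL against 0.91 for ADX+PSL, and the difference was -2.06. *S100a8* had 0.97 for sham+PSL against -1.19 for ADX+PSL, and the difference was 2.17. *S100a9* had 0.88 for sham+PSL against -1.31 for ADX+PSL, and the difference was 2.20. *Pf4* had 0.79 for sham+PSL against -0.53 for ADX+PSL, and the difference was 1.32. *Gp9* had 0.52 for sham+PSL against -0.70 for ADX+PSL, and the difference was 1.23. *Ly6c1* had 0.84 for sham+PSL against -0.49 for ADX+PSL, and the difference was 1.33. *Lum* had 1.18 for sham+PSL against -0.76 for ADX+PSL, and the difference was 1.94.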

How the results depend on the processing

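The count of genes lowest on the sham+PSL ZT22 array stayed within 1.5 times its value under all alternatives run, but quantile normalization within a pair of arrays cannot give it. The median log2 ratio in sham+PSL was 2.68 with normexp and 2.68 with no background correction, and 2.73 with no filter on background, where 2 genes at background enter. For ADX+PSL over sham+PSL at ZT22 it was 1.98, 1.98 and 1.95 under the same settings. Both medians moved beyond the spot error of 0.20 there and kept their sign. At a ratio limit of 1.5 in place of 2, 1 gene was lower at ZT10 in ADX+PSL (*Hbb-b2*), and between the operations at ZT10 1 was higher in ADX+PSL (*Klf1*) and 1 lower (*Alas2*), where none was past 2-fold. Chosen after seeing the data were the counting of the alpha-globin genes as 1, and the counts and single ratios under the other normalizations: *Slc4a1* fell below 2-fold in sham+PSL with normexp (log2 0.51) and with no background correction (0.49), leaving 5 of 7 genes. No normalization between arrays shifted the median of all probes for ADX+PSL over sham+PSL at ZT22 by 0.11 and the other settings by less. All other summary values changed by less than the spot error, or for counts by less than 1.5 times. With only probes well above background on both arrays, the share of all probes past 2-fold was 0.856% higher and 1.14% lower for ZT10 over ZT22 in sham+PSL, 0.5004% higher and 1.04% lower for ZT10 over ZT22 in ADX+PSL, 0.746% higher and 1.35% lower for ADX+PSL over sham+PSL at ZT10 and 0.783% higher and 1.01% lower for ADX+PSL over sham+PSL at ZT22. At a ratio limit of 1.5 it was 5.21% higher and 5.36% lower for ZT10 over ZT22 in sham+PSL, 4.98% higher and 4.01% lower for ZT10 over ZT22 in ADX+PSL, 5.90% higher and 5.65% lower for ADX+PSL over sham+PSL at ZT10 and 4.63% higher and 5.59% lower for ADX+PSL over sham+PSL at ZT22.

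No paired analysis was possible because each condition has 1 array, and for the same reason no array was left out within a condition. Without the sham+PSL ZT22 array only comparisons with 0 of 8 genes past 2-fold are left. The spot error leaves out the spread between mice.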
